A study of Mus musculus with 2 samples.

Results

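The interferon regulatory factor (IRF) genes measured here were Irf1, Irf2, Irf3, Irf4, Irf5, Irf7, Irf8 and Irf9, 8 of the 22605 genes in a table of DNase I signal from M1 cells. They were chosen by name, with earlier results of these data known. Their 32 entries, of 55432 in the table, are transcripts, and the transcript that covered the most windows stood for each gene. M1 cells are a murine myeloid leukemia line of progenitor type in which the cytokine IL-6 induces differentiation into macrophage-like cells. The study asked which chromatin sites are open in these cells before and after IL-6 treatment. 1 library came from untreated M1 cells and 1 from M1 cells treated with IL-6, for which the labels give 4 to 5 days. Both came from the same line, kept in medium with horse serum at passages 15 to 18, and differed in the labels by IL-6 alone.

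IRF proteins share a DNA-binding domain that recognizes interferon-stimulated response elements (ISRE) in the promoters of antiviral and immune genes. Some members are made at all times and wait for a signal from pattern-recognition receptors, some are themselves induced by interferons or other cytokines through STAT proteins, and some direct the development of blood cells together with the ETS factor PU.1. IL-6 signals mainly through STAT3, which binds gamma-activated sequences (GAS).

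In DHS-seq, DNase I cuts accessible chromatin first, and the short fragments released by a pair of cuts are sequenced. The deposited value of a transcript is the mean number of reads over the 700-bp windows touched by its coding span, from start to stop codon, on NCBIM37. A level below is therefore reads per window of equal length, so that genes can be compared, and the reads of IL-6-treated cells carry the scaling of the table, 1.03816 for each read. The depth over non-overlapping spans on chromosomes 1 to 19 and X was 9102320 reads without and 8544903 reads with IL-6, or 7.58 and 7.12 per window. With 1 library per condition no difference has a replicate check and no p-value is given. The 95% intervals (Clopper-Pearson for ratios, Poisson for levels) express counting error alone and set 1 library against another, not condition against condition. In a bulk library, a change in the share of cells that are open at a site and a change within each cell cannot be told apart.

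The DNase I signal was lower after IL-6 treatment at 7 of the 8 IRF genes and higher at Irf4. This count has to be read against the table, in which 48.3% of 18473 genes were lower by any amount (those past 21 reads in at least 1 library). That share is not matched for strength. The median level in M1 cells was 21.7 reads per window for the members and 7.75 for all genes. With the levels of both libraries summed, 94.4% of genes were lower at 60 to 100 reads per window and 24.4% at up to 10. The 95% interval of the ratio lay below 1 for 6 members (Irf1, Irf2, Irf3, Irf7, Irf8 and Irf9), above 1 for Irf4, and held 1 for Irf5. The median log2 ratio of the members was -0.50, and that of all 18473 genes was 0.03. Only Irf9 was at least 2-fold lower, where 13.4% of all genes were, and 0 members were at least 2-fold higher, where 1.69% of all genes were. Under a scaling by the strong windows all 8 members were instead higher, with a median log2 ratio of 1.34, as described at the end.

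**Figure D1:**
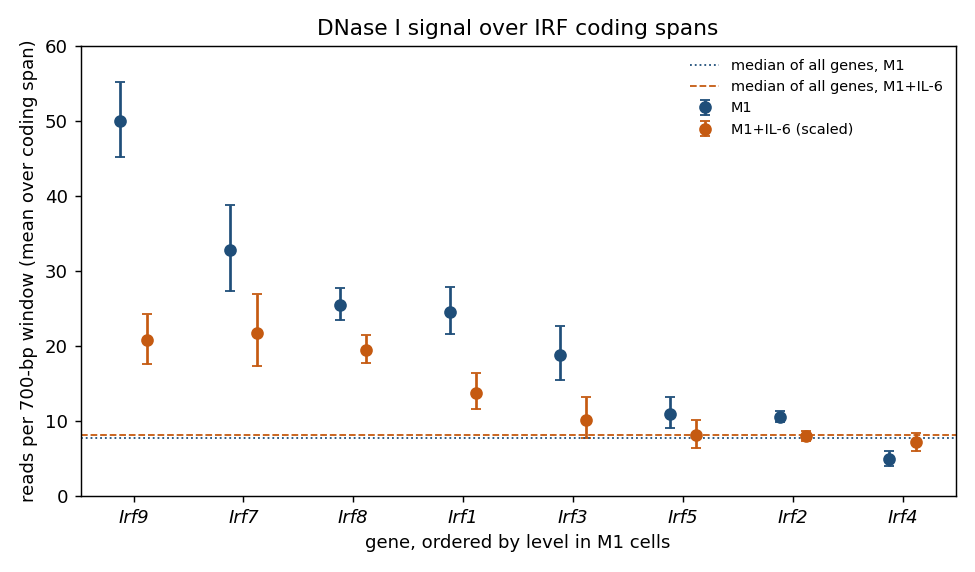
Mean reads per 700-bp window over the coding span of each IRF gene (y axis, linear from 0) in M1 cells (blue) and IL-6-treated M1 cells (orange, scaled as in the table), with 95% Poisson intervals as bars and the medians of all genes as horizontal lines. 7 genes are lower in IL-6-treated cells and Irf4 is higher, an arrangement that changes to 8 higher under the scaling by strong windows.

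In M1 cells the order of the levels was Irf9, Irf7, Irf8, Irf1, Irf3, Irf5, Irf2 and Irf4, from 50 down to 4.90 reads per window, a 10.2-fold range. The median level of all genes was 7.75, and 7 of the 8 members were above it. Neighbors in this order differed beyond counting error, except Irf8 and Irf1 (ratio of levels 1.04, 95% interval 0.891 to 1.21) and Irf5 and Irf2 (1.04, 0.843 to 1.27). Against the much larger spread between the windows of a gene, only Irf2 and Irf4 differed by more than 2 standard errors (2.93). In IL-6-treated cells Irf7 and Irf9 exchanged places at the top and the rest kept their order. The range narrowed to 3.04-fold, and among neighbors only Irf8 and Irf1 differed beyond counting error (1.41, 1.16 to 1.73). The members therefore lay closer together after IL-6 treatment, which no common scaling factor can change. Strong and weak genes drew together across the whole table as well. The median log2 ratio was 0.39 for genes with up to 10 reads per window, summed over both libraries, and -1.89 above 100. Whether the IRF genes narrowed more than other genes was not tested. The places of Irf1, Irf5 and Irf9 rest on the transcript chosen. With the transcript of fewest windows, Irf1 was first in M1 cells at 41.25 reads per window and Irf9, at 19.4, was below Irf7 and Irf8. In IL-6-treated cells Irf9, at 15.3, was then below Irf7, Irf8 and Irf1 (16.9). Irf5, at 7.0 and 5.61, was below Irf2 in both libraries and in IL-6-treated cells also below Irf4.

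The member with the strongest signal and the lowest ratio was Irf9, the DNA-binding subunit of the interferon-activated complex ISGF3. Irf9 lies on chromosome 14 from 56222408 to 56228867, on the plus strand. Its 8 windows, from 56222601 to 56228200, held 400 reads without and 160 reads with IL-6. This is 50 ± 87.8 and 20.8 ± 17.7 reads per window (SD between the 8 windows of 1 library), a ratio of 0.415 (95% interval 0.344 to 0.50), or -1.27 on the log2 scale. The ratio was at the 9.03 percentile of all genes tested, a place that a common scaling factor does not change within a fixed set of genes. The SD in M1 cells was larger than the mean, so the reads were concentrated in few windows.

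That concentration could be placed. The listed transcripts of Irf9 begin at different start codons, and the difference between them isolates the first window, from 56222601 to 56223300. The window starts 193 bp downstream of the annotated start of the gene and contains the end of exon 1 with the start codon of the longer transcript, at 56222970, and most of intron 1. It also contains 1 of the 2 Irf9 starts listed by RefSeq, at 56222822, and the other, at 56223416, lies just beyond it. The table resolves the window as a whole and does not place its reads within it. The part of the window that lies in intron 1 is shown because it belongs to the window on which the value of Irf9 rests, from the splice donor onward, chr14:56223081-56223300, plus strand, 54.5% G or C, with no ISRE or GAS match to capitalize:
Irf9 intron 1: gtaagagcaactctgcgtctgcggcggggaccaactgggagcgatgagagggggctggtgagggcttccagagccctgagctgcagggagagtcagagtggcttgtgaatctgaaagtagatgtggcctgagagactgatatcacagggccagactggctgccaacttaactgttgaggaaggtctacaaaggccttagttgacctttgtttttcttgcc

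The first window of Irf9 held 264 reads without and 57 reads with IL-6, a scaled 59.2. The ratio was 0.224 (0.165 to 0.299) and the log2 ratio -2.15. The other 7 windows, from 56223301 to 56228200, held 136 and 103 reads, a ratio of 0.786 (0.603 to 1.02) that holds 1. Most of the difference in reads over the span of Irf9 thus lay in its first window. Free of any scaling between libraries, the first window took 66.0% of the reads of the span in M1 cells (exact 95% binomial interval 61.1% to 70.6%) and 35.6% in IL-6-treated cells (28.2% to 43.6%). Its level was 13.6-fold that of the other 7 windows in M1 cells and 3.87-fold in IL-6-treated cells. The window remained strong relative to others in both libraries, at the 97.1 percentile of 3893 single windows in M1 cells and at the 96.9 percentile in IL-6-treated cells. A difference of this size was usual for a window of this strength. All 87 single windows with 200 to 350 reads in M1 cells, a range chosen after the values were seen and around that of Irf9, were lower with the scaling of the table, with a median log2 ratio of -2.22. They were picked on their M1 reads, which also enter the ratio.

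Irf1 is an activator of interferon and immune genes and a classical target of STAT proteins. It lies on chromosome 11 from 53583516 to 53591876, on the plus strand, and its 10 windows run from 53584301 to 53591300. They held 246 reads without and 133 reads with IL-6, 24.6 ± 20.4 and 13.8 ± 5.11 reads per window (SD between 10 windows). The ratio was 0.561 (0.451 to 0.696) and the log2 ratio -0.83. The SD was lower by a larger factor than the mean, so that the windows were more alike with IL-6.

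The 9 listed transcripts of Irf1 divide the span into 6 stretches, and the reads of each stretch and of single windows in it follow from the means and SDs of the table. The first 2 windows, with exon 2 and the start codon, held 41 and 41 reads in M1 cells and 18 and 14 reads in IL-6-treated cells, in which the table does not tell the order. Their ratio was 0.405 (0.260 to 0.616). The next 2 windows, with exon 3, held 68 and 15 reads in M1 cells and 23 and 10 reads in IL-6-treated cells, a ratio of 0.413 (0.267 to 0.625). The window of 68 reads was the strongest in the span. These 2 windows also hold Gm17334, a gene annotated from 53585783 to 53586689 on the opposite strand, and DNase I reads have no strand that would assign them to either gene.

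Further into Irf1 the intervals held 1. The window with exons 4 to 6 held 15 reads in M1 cells and 12 in IL-6-treated cells, a ratio of 0.831 (0.355 to 1.90). The 2 windows with exons 7 and 8 held 47 and 29 reads (0.641, 0.389 to 1.04), and the 2 windows with exon 9 held 18 and 22 reads (1.27, 0.650 to 2.51). The last window held 1 and 5 reads, too few for a direction. Only the first 4 windows thus had intervals below 1. In M1 cells 4 of the 10 windows were above 21 reads, and in IL-6-treated cells 1 was, after scaling. The study's methods detected hypersensitive sites by more than 21 reads, without stating the window size or the library to which this applied.

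**Figure D2:**
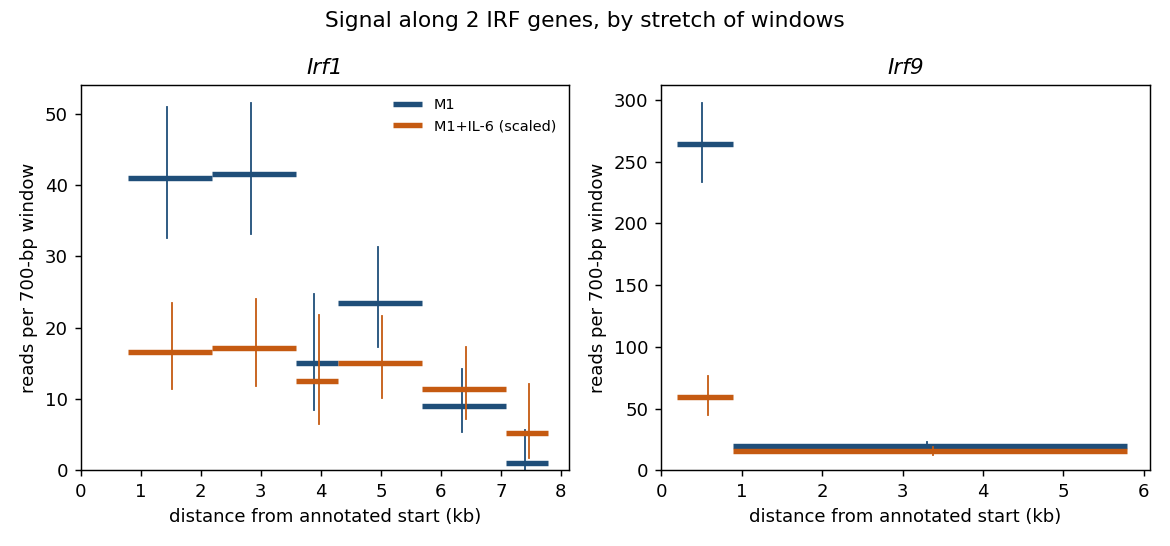
Mean reads per 700-bp window (y axis) against distance from the annotated start (x axis, kb) for Irf1 (left) and Irf9 (right), with M1 cells in blue and scaled IL-6-treated M1 cells in orange. Each horizontal bar is a stretch of 1 or more windows and each vertical line its 95% Poisson interval, and in both genes the libraries are farthest apart in reads at the 5′ end.

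Irf2 competes with Irf1 for the same DNA sites and mostly represses them. Its coding span is the longest of the 8, with 76 windows on chromosome 8 from 47878601 to 47931800, 53502 bp downstream of the annotated start, so that the promoter end lies far outside. The span held 805 reads without and 588 reads with IL-6, 10.6 ± 16.3 and 8.03 ± 6.08 reads per window (SD between 76 windows). The ratio was 0.758 (0.681 to 0.844) and the log2 ratio -0.40. The mean and SD allow a strongest window of 36 to 151 reads in M1 cells and of 13.5 to 60.2 scaled reads in IL-6-treated cells. At least 1 window was therefore above 21 reads in M1 cells, and in IL-6-treated cells the values allow 0 to 12 such windows.

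Irf3, Irf7 and Irf5 act below receptors for nucleic acids and microbial products. Irf3 is present before infection and is phosphorylated by TBK1 to switch on interferon beta. Its 6 windows on chromosome 7, from 52253601 to 52257800, held 113 reads without and 59 reads with IL-6, 18.8 ± 15.1 and 10.2 ± 5.23 reads per window (SD between 6 windows). The ratio was 0.542 (0.389 to 0.749) and the log2 ratio -0.88, after Irf9 the lowest of the members. Between 1 and 4 of the 6 windows were above 21 reads in M1 cells, and 0 in IL-6-treated cells, where the strongest window had at most 20.8 scaled reads. The windows of Irf3 also hold the annotated start of Bcl2l12, at 52254082 on the minus strand. Reads there cannot be assigned to either gene.

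Irf7 amplifies the type I interferon response and is itself induced by interferon. It has the shortest span, 4 windows on chromosome 7 from 148449001 to 148451800, and lies on the minus strand with its start 580 bp beyond the windows. The span held 131 reads without and 84 reads with IL-6, 32.8 ± 18.9 and 21.8 ± 8.93 reads per window (SD between 4 windows). The ratio was 0.666 (0.50 to 0.882) and the log2 ratio -0.58. Irf7 was at the 92.3 percentile of the levels of all genes in M1 cells and at the 94.3 percentile in IL-6-treated cells, where it headed the members. Its level was thus lower in reads and not lower in rank.

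Irf5 mediates inflammatory cytokine responses in macrophages. Its 10 windows on chromosome 6, from 29485401 to 29492400, held 110 reads without and 79 reads with IL-6, 11 ± 7.44 and 8.20 ± 2.83 reads per window (SD between 10 windows). The ratio was 0.746 (0.551 to 1.00) with an upper bound just above 1, and the log2 ratio was -0.42. A direction was not detectable at this depth. Other Irf5 transcripts start further upstream and isolate 5 windows with 35 and 27 reads (0.801, 0.466 to 1.36). They also isolate 4 windows, from 29484001 to 29486800, with 51 and 44 reads (0.896, 0.585 to 1.37). These 4 windows overlap the start of the 10 windows above, so part of their reads is counted in both. Neither stretch had a window above 21 reads in either library.

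Irf8 and Irf4, close relatives that bind DNA together with PU.1, are the members with the best known roles in blood cell development. Irf8 directs progenitors toward monocytes and dendritic cells. Its 22 windows on chromosome 8, from 123263701 to 123279100, held 561 reads without and 414 reads with IL-6, 25.5 ± 12.1 and 19.5 ± 10.2 reads per window (SD between 22 windows). The ratio was 0.766 (0.673 to 0.871) and the log2 ratio -0.38. The mean and SD allow 3 to 22 windows above 21 reads in M1 cells and 1 to 18 in IL-6-treated cells, so how the signal was spread over the gene could not be told. The first 20 windows had a ratio of 0.778 (0.678 to 0.891) and the last 2 a ratio of 0.676 (0.444 to 1.02). Those last 2 windows, with exons 8 and 9, held 36 and 27 reads in M1 cells, both above 21, and 21 and 20 reads in IL-6-treated cells, a scaled 21.8 and 20.8, of which 1 was above 21. By rank Irf8 went from the 89.0 to the 92.0 percentile of all genes. It lies within Gm20388, a long gene annotated across the region, which shares its windows.

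Irf4, which acts in lymphocytes, dendritic cells and alternatively activated macrophages, was the exception. Its 20 windows on chromosome 13, from 30842001 to 30856000, held 98 reads without and 138 reads with IL-6. This is 4.90 ± 2.31 and 7.16 ± 4.21 reads per window (SD between 20 windows), a ratio of 1.46 (1.12 to 1.91), or 0.55 on the log2 scale. Irf4 was below the median level of all genes in both libraries, at the 31.1 and the 42.6 percentile. No window was above 21 reads in M1 cells, where the strongest held 7 to 14, and at most 1 was in IL-6-treated cells, where the strongest held 10.4 to 24.9 scaled reads. The higher value thus stayed within weak signal, and whether it includes a hypersensitive site could not be told from the mean and SD.

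The spread between the windows of a gene was lower with IL-6 in most members. The variance divided by the mean of the reads per window is 1 where only counting error acts and grows where reads pile up in few windows. In M1 cells it was 154 for Irf9, 25.2 for Irf2, 16.9 for Irf1, 12.1 for Irf3, 11 for Irf7, 5.76 for Irf8, 5.03 for Irf5 and 1.09 for Irf4. In IL-6-treated cells it was 14.5, 4.43, 1.82, 2.58, 3.52, 5.17, 0.941 and 2.38 in the same order of genes. It was lower in 7 of the 8 members, by little in Irf8, and higher in Irf4. This too was common in the table: of 17531 genes with at least 4 windows, 73.1% had a lower value in IL-6-treated cells, and the median went from 6.14 to 3.78. It was taken from the reads as counted, so that the scaling between the libraries does not enter it. It does depend on the number of reads, because for clumped reads it falls as the mean falls. The 7 members with a lower value were also the 7 with fewer reads. In Irf8 the SD fell by a smaller factor than the mean, from 12.1 to 10.2 beside 25.5 to 19.5. In each of the other members with a lower value the SD fell by a larger factor than the mean.

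**Figure D3:**
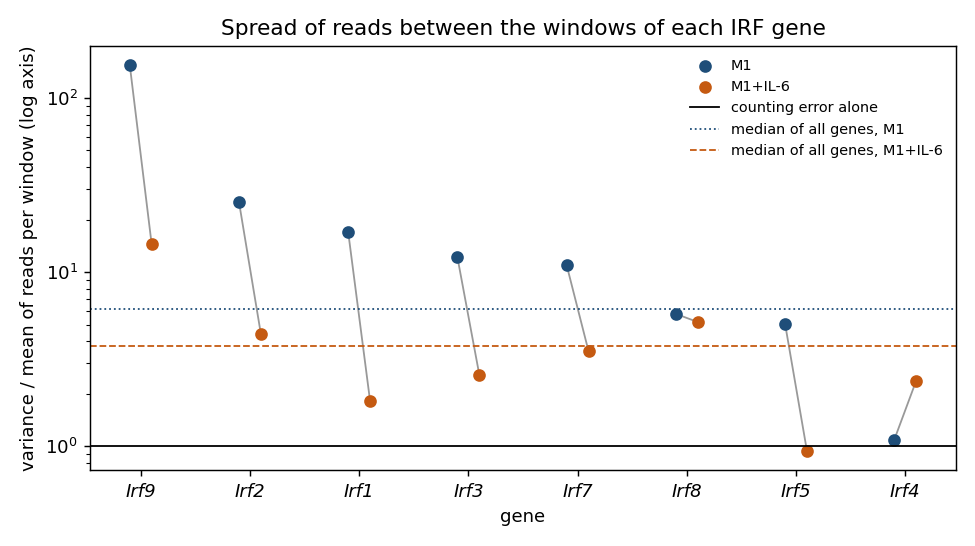
Variance divided by mean of the reads per 700-bp window (y axis, log) for each IRF gene in M1 cells (blue) and IL-6-treated M1 cells (orange), with lines at counting error alone and at the medians of genes with at least 4 windows. The value is 154 and 14.5 in Irf9, nearly equal in Irf8, and higher with IL-6 in Irf4.

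Across the table, the ratio was lower where the signal was stronger, and the members followed this course in part. Genes were placed in ranges of the summed level of both libraries, which were chosen after the values were seen and use the same reads as the ratio. In the range of 60 to 100 reads per window the median log2 ratio of all genes was -1.36 and 94.4% were lower, beside -1.27 for Irf9. In the range of 40 to 60 the median was -0.79, below the values of Irf7 (-0.58) and Irf8 (-0.38). In the range of 30 to 40 it was -0.33, and Irf1 was lower at -0.83. In the range of 20 to 30 it was -0.04, with a lower quartile of -0.45, and Irf3 was lower than that quartile at -0.88. In the range of 15 to 20 it was 0.12, above Irf2 (-0.40) and Irf5 (-0.42), and in the range of 10 to 15 it was 0.22, below Irf4 (0.55). Irf3, whose windows also hold the annotated start of Bcl2l12, was thus the farthest from the median of genes of similar level. Irf9, with the lowest ratio, was near its median. The genes whose 2 levels were nearest to those of Irf9, among genes of 4 to 16 windows, were Dmwd (450 and 181 reads), Dusp1 (202 and 80 reads) and Parp3 (404 and 159 reads).

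**Figure D4:**
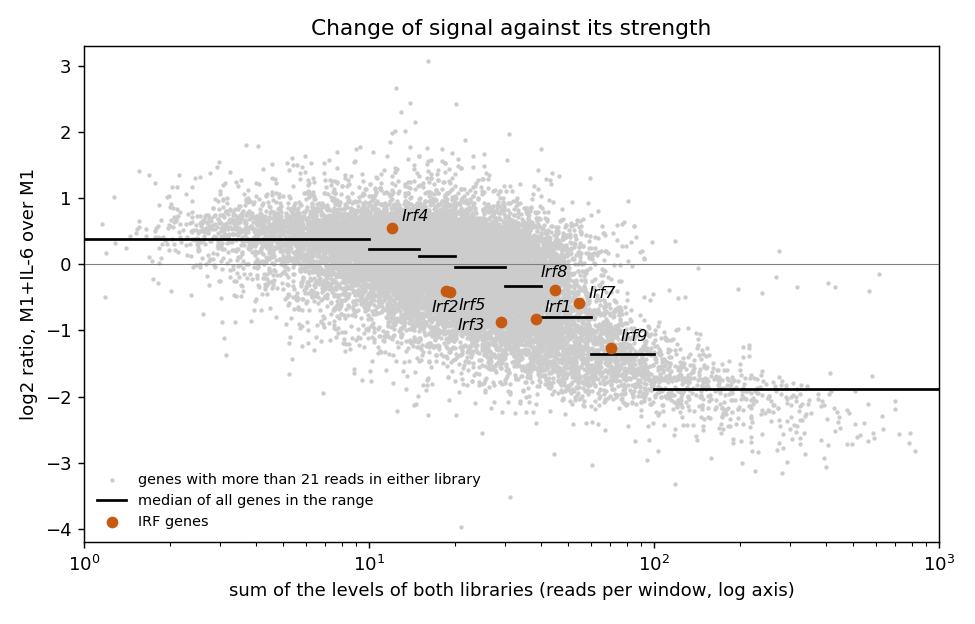
Log2 ratio of IL-6-treated over untreated M1 cells (y axis, with the scaling of the table) against the summed level of both libraries (x axis, log) for genes past 21 reads in at least 1 library (gray, a few beyond the x axis not drawn), with the IRF genes in orange and the median of all genes in each range as black bars. Irf9 sits near its bar, Irf1, Irf2, Irf3 and Irf5 lie below theirs, and Irf4, Irf7 and Irf8 lie above theirs, and another common scaling would move all points by the same distance.

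The coding spans leave out most of the IRF promoters. The windows of all 8 members begin downstream of the annotated start, by 193 bp for Irf9 to 53502 bp for Irf2. For context, the 11 promoters that RefSeq lists for the 8 genes, 250 bases before to 50 bases after a start on GRCm38.p6, were matched to NCBIM37, each at 1 place. Both strands were searched for GAS, as TTCNNNGAA, and for ISRE, as GAAANNGAAA, and no match of one overlapped a match of the other in the promoters shown. 3 of the 11 had a GAS match, and 8.30% of 32851 RefSeq promoters did. 1 had an ISRE match, and 3.44% of all did. The matches are shown because they are the letters that STAT and IRF proteins are known to read, and they lie outside the measured windows.
Irf1 GAS, chr11:53583426-53583434, 90 bases before the start: TTCCCCGAA
Irf2 GAS, chr8:47824875-47824883, 224 bases before the start: TTCCGAGAA
Irf2 ISRE, chr8:47824858-47824867, 241 bases before the start: GAAAATGAAA
Irf8 GAS, chr8:123260087-123260095, 171 bases before the start: TTCTCGGAA
Irf8 GAS, chr8:123260105-123260113, 153 bases before the start: TTCAGAGAA

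The DNase I signal at these promoter letters was not analyzed here. Within the measured windows, the first window of Irf9 had 1 GAS match, TTCTAGGAA at chr14:56222961-56222969, just before the start codon, and 0 ISRE matches. Of 3893 single windows, 18.4% held a GAS match and 7.68% an ISRE match. A match is a description of letters and does not show that a protein binds there.

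The rest of the pathway was read from 3 lists. Of the interferon receptors, their kinases and STATs, 8 genes are described, of which 6 were lower and 2 higher, with a median log2 ratio of -0.35, where 48.3% of all genes were lower. 0 were past 2-fold, where 13.4% of all genes passed it downward and 1.69% upward. The lowest was Ifngr1, a chain of the interferon gamma receptor, with 326 and 168 reads (-0.90), and the highest was the kinase Jak1 with 522 and 549 reads (0.13, interval of the ratio 0.967 to 1.23). Of the sensors, adaptors and kinases that activate IRF proteins, 10 of 19 were lower and 9 higher, with a median of -0.12, a split near the 48.3% lower among all genes. 2 were at least 2-fold lower (13.4% of all genes), the receptor Tlr7 with 193 and 87 reads (-1.09) and the adaptor Myd88 with 198 and 95 reads (-1.0). 1 was at least 2-fold higher (1.69% of all genes), Tlr3, a receptor for double-stranded RNA, with 13 and 39 reads (1.60), the highest of the list. These medians were nearer to that of all genes than that of the IRF genes was.

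Of the partners and corepressors of IRF proteins, 7 of 10 were lower and 3 higher, beside 48.3% lower among all genes, with a median log2 ratio of -0.54. 4 of the 10 were at least 2-fold lower, beside 13.4% of all genes, a share that is not matched for strength. These 4 had 28.9 to 49.75 reads per window in M1 cells, where the median of all genes was 7.75. Stronger genes were lower more often across the table. The lowest was Irf2bp1, which binds the repression domain of Irf2, with 106 and 32 reads (-1.66), followed by Irf2bp2 with 199 and 69 reads (-1.47). Spi1, the gene of PU.1, had 1360 and 586 reads (-1.16), and the related Spib had 272 and 120 reads (-1.12). The highest of the 10 was Batf2 with 97 and 120 reads (0.36, interval of the ratio 0.975 to 1.70). With the scaling of the table, lower signal was thus found at the gene of PU.1 as well as at its partner Irf8, while Irf4, the other partner, was higher. Under the scaling by strong windows Irf8 and Irf4 were both higher, at 1.46 and 2.39. Among genes of similar level the median log2 ratio with the scaling of the table was -0.79 for the range of Irf8 and 0.22 for that of Irf4.

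The labelled cell type could not be read from coding spans alone. 12 genes that mark blood and myeloid cells had a median level of 10.0 reads per window in M1 cells, from 3.33 to 46.5, and 10 genes that mark liver, epithelium, muscle and other cells had a median of 11.9, from 3.09 to 22.1. After IL-6 treatment 7 of the 12 and 0 of the other 10 were lower, beside 48.3% of all genes, with median log2 ratios of -0.26 and 0.42. None of the 10 was at 0, and the levels did not separate the lists.

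The direction at the IRF genes depended on the scaling between the libraries. The table's own factor, no scaling, and the total over coding spans all gave 7 members lower and 1 higher. These factors, 1.04, 1 and 1.07 for each read with IL-6, differ too little to change the sign of any member. Their agreement is therefore no check of the direction. A scaling by the median of ratios over 518 single windows, each of 22 reads or more without and with IL-6, added 1.85 to each log2 ratio and turned all 8 members to higher. With it Irf9 was at 0.58 and Irf4 at 2.39. Among all genes the split changed from 2475 at least 2-fold lower and 313 higher to 17 lower and 17727 higher. The first window of Irf9 had a ratio of 0.806 (0.594 to 1.08) and its other 7 windows a ratio of 2.83 (2.17 to 3.68). No added standard is described in the sources used here, and which scaling is right was not tested. A common factor moves all log2 ratios nearly alike, so their order, with Irf4 highest and Irf9 lowest, is no check of the scaling. The factor does not enter the share of its span that the first window of Irf9 took, which was smaller after IL-6 treatment. The variance divided by the mean over windows, also free of the factor, was lower in 73.1% of 17531 genes. Whether the smaller share at Irf9 differs from that was not tested. The order of the log2 ratios did depend on the transcript. With that of fewest windows Irf1 was lowest, at -1.28, and Irf9 was at -0.35.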

How the data were processed

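DHS-seq had 1 library for each condition, M1 cells without and with IL-6. The authors digested nuclei with DNase I and mapped the trimmed reads to NCBIM37 by BWA (version not given in the sources used here) before they used Seqmonk. The methods describe single-read and a figure legend paired-end sequencing. The deposited values are signal per 700-bp window, as a mean and an SD for each of 55432 coding spans of GENCODE M1.

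Reads were recovered as mean times windows over the value of 1 read, 1 in M1 cells and 1.03816 in IL-6-treated cells, and lay within 0.00298 of whole numbers. Sums of squares from the SDs gave single window values and bounds, checked on simulated data. The factor is not named in the sources used here and was kept. The design had foreseen reads per site, and spans were used instead. Log2 ratios add 0.5 reads. The named genes are all members, the lowest and highest gene of each list, the 3 genes nearest to the member with the largest change, and genes that share windows. Myd88, Irf2bp2, Spi1 and Spib were named in addition because they passed 2-fold. 2 genes of the rule are not reported here. The members and lists were chosen with earlier results of these data known. Alternatives covered the scaling, the reads added, the transcript, the minimum and the fold. RefSeq sequences are of GRCm38.p6. Intervals cover counting error only. Python 3.11.15, numpy 2.4.6, pandas 2.3.3, scipy 1.17.1 and matplotlib 3.10.9 were used.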

Additional observations from a re-analysis of the deposited data

How the results depend on the processing

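No paired analysis was possible because there was only 1 sample without and 1 with IL-6. Of 208 values under other settings, 143 stayed within their interval or within 1.5 times the count. 59 moved, and 6 that were past 2-fold as reported changed sign. Changes of sign from smaller log2 ratios are counted among the 59. An example is Irf1, from -0.83 to 1.01 under the median of ratios over strong windows. No scaling and the total over coding spans, whose factors are close to that of the table, moved 0 of 50 values beyond their interval. The scalings over strong windows (median of ratios, then trimmed mean) gave a median log2 ratio of the IRF genes of 1.34 and 1.23, with 0 and 0 members lower and 8 and 8 higher. Irf9 turned to 0.58 and 0.47, the first stretch of Irf1 to 0.54 and 0.43, and its second stretch to 0.57 and 0.46, while the first window of Irf9 stayed lower at -0.31 and -0.42. All genes at least 2-fold lower numbered 17 and 23, and those at least 2-fold higher 17727 and 17039, with 0.0958% and 0.135% of changed genes lower beside 88.8% as reported. The shift follows from the larger value of 1 read, and which factor is right was not tested. The number of genes at least 2-fold higher was 161 with 5 reads added, 97 with more than 50 reads and 1089 with no minimum. A fold of 1.5 gave 4288 lower and 2000 higher. The transcript with the fewest windows gave -0.35 for Irf9, because it leaves out the first window, and -1.28 for Irf1, because it keeps only the first 4, and the mean over transcripts gave -0.82 for Irf9. Depth limits Irf5, the last window of Irf1 and every statement on a single window that the means do not isolate.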

Other observations

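Bcl2l12 starts opposite to Irf3, and the 2 annotated genes overlap at their 5′ ends. It was looked at after its values were seen. The 2 windows of Bcl2l12 nearest to Irf3, on chromosome 7 from 52251501 to 52252900, held 120 and 7 reads in M1 cells and 34 and 4 reads in IL-6-treated cells, a ratio of 0.311 (0.210 to 0.449). The next 3 windows into Bcl2l12 held 29 and 39 reads in the 2 libraries (1.40, 0.841 to 2.34). The window between the measured spans of the 2 genes, which holds the annotated start of Irf3, is not analyzed here. The annotated start of Bcl2l12 lies within the windows of Irf3.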
